A study of Homo sapiens with 8 samples.

Results

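HepG2 is a human hepatocellular carcinoma (HCC) cell line that keeps many functions of hepatocytes, and NaB is sodium pentaborate pentahydrate, a boron salt. The comparison described here was HepG2 cells treated with 2500 µM NaB for 48 h against untreated HepG2 cells (control), 2 of the 8 RNA-seq libraries of the study. The other libraries used beside them were HepG2 cells treated with 2500 µM NaB, curcumin (Cur, 30 µM) and piperine (Pip, 6 µM) together, HepG2 cells treated with Cur and Pip, cells labelled Hep3B, another HCC line, treated with 1700 µM NaB, and untreated cells labelled Hep3B, all after 48 h. Each condition had 1 library, so that no test between conditions was possible, and every difference is a description of the libraries compared. The question was which genes differed after NaB alone at the dose chosen for the combination treatment.

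The deposited values were FPKM of assembled transcripts, a read-pair count scaled to transcript length and library size. Each transcript was assigned to the GENCODE gene that held at least 50% of its exonic bases on the same strand, and the FPKM of a gene was the sum over its transcripts. Fold changes were log2 of (FPKM + 1) after NaB over (FPKM + 1) in control, and a gene was counted as higher or lower past an absolute value of 1.5. The NaB library held 28735 transcripts and about 30.5 M fragments as estimated from coverage, against 26089 transcripts and 33.2 M fragments in the control library. Transcripts with 1 exon made up 22.7% of the NaB library and 16.4% of the control library. The largest FPKM of a transcript was 1.92e+08 in control, for a transcript of 125 nt on chromosome 12. After NaB it was 18766, for a transcript of 151 nt. Of 20 defining hepatocyte genes, 19 had an FPKM of at least 1 after NaB, against 17 in control. Missing from the control count were ALB and AFP, which had no assembled transcript there. In the libraries labelled Hep3B the same count was 2 after NaB, against 4 in control, so that most defining hepatocyte genes lay below 1 FPKM there. These libraries are therefore named only by their label. Of 10 markers each, 2 endothelial, 2 fibroblast and 2 blood genes reached an FPKM of 1 in both HepG2 libraries. The blood genes summed to 516 FPKM after NaB and 1394 FPKM in control, nearly all from LYZ, the lysozyme gene, and their part in any result was not tested.

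As background, cells that run short of amino acids or fold proteins poorly raise the transcription factor ATF4, which switches on genes for serine, proline and asparagine synthesis, for amino acid transporters and for aminoacyl-tRNA synthetases. A separate branch of the same response switches on the chaperones of the endoplasmic reticulum (ER). Genes for DNA replication are under E2F factors, which act as cells pass into S phase, and genes for cholesterol synthesis are under SREBP2. In a liver line these programs run beside the secretion of plasma proteins such as albumin.

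Genes were measured where either library reached 1 FPKM. Of these 12165 genes, 635 were higher after NaB (5.22%) and 683 were lower (5.61%). Most of these counts came from genes for which 1 library listed no transcript. Of 1222 such genes, 456 were higher (37.3%) and 482 lower (39.4%). Among 10943 genes listed in both libraries, 179 were higher (1.64%) and 201 lower (1.84%). Genes listed in both also differed in how their transcripts were pieced together. A stricter class was therefore formed after the values were seen, holding genes whose mean transcript length differed by no more than 1.5 times between the libraries, whose main annotated transcript was covered over at least 50% of its bases in both, and which had no transcript running over a second protein-coding gene. Of 7496 genes assembled alike in this sense, 53 were higher (0.707%) and 64 lower (0.854%), with a median log2 fold change over all of them of 0.02. The other 3447 genes listed in both libraries had 126 higher (3.66%) and 137 lower (3.97%).

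**Figure D1:**
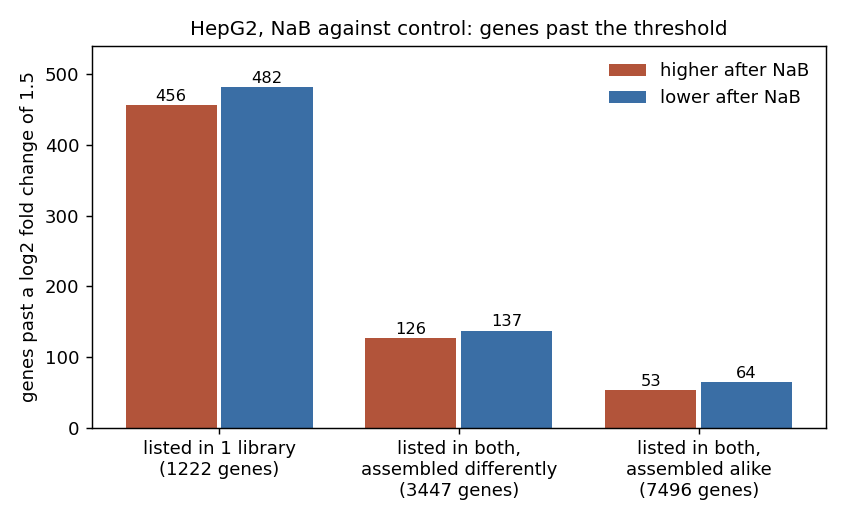
Number of genes past a log2 fold change of 1.5 (bars, y axis) after NaB in HepG2, by how the gene was listed in the NaB and control libraries. The bars for genes listed in 1 library (456 and 482) are taller than those for genes assembled alike (53 and 64), although they rest on 1222 against 7496 genes.

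The clearest case of a gene listed in 1 library was ALB, which encodes albumin. ALB had 7518 FPKM and AFP, the fetal albumin-like protein, 818 FPKM after NaB, against 0 in control for both. The stretch from ALB to AFP (GRCh38, chr4:73397114-73456174) held 3 assembled transcripts in the NaB library and none of any kind in the control library. The HepG2 libraries with NaB, Cur and Pip and with Cur and Pip had 2989 and 2998 FPKM of ALB. No fold change is given for ALB and AFP, since a 0 here is the lack of an assembled transcript. Genes of this kind do enter the counts and medians over all measured genes and over measured list members, and do not enter those over genes assembled alike. APOA1, the main protein of HDL, was assembled alike and had 1784 FPKM after NaB, against 2078 FPKM in control. Among protein-coding genes, 323 were listed only after NaB and 445 only in control, and transcripts assigned to other genes lay over the exons of 106 and 207 of them at an FPKM of at least 1 in the other library. The highest of the genes listed only in control were RPLP1, RPL21, RPL13, MIF, NEU1 and PSMA7 (325 to 1171 FPKM). The highest of those listed only after NaB included ALB, RPS12, AFP, ENSG00000273259 and HSPA1A, the stress-induced HSP70 gene with a near-identical copy beside it (492 to 7518 FPKM).

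By the rule set for named genes, the protein-coding genes listed in both libraries with the largest differences included many of this kind. Only 2 of the 12 highest and 4 of the 12 lowest were assembled alike. RPS24, a ribosomal protein gene, had 681 FPKM after NaB and 0.35 FPKM in control, and its log2 fold change of 8.98 became 3.34 when the depth of all transcripts was apportioned over annotated exons. PZP, which encodes pregnancy zone protein, had 4061 FPKM after NaB and 189 FPKM in control from short transcripts that covered 7.55% and 9.97% of its main transcript. HP, which encodes haptoglobin, had 18.9 FPKM after NaB and 262 FPKM in control with mean transcript lengths of 1966 nt and 579 nt. The other highest genes that were not assembled alike included SELENOP, RPS28, COX7B, IL18, RPL28 and FKBP1C (log2 2.37 to 6.502), and the other lowest included METAP1D, SERF2, MTHFD2, HELLS, ITGAE and RARRES2 (log2 -5.65 to -2.64). The direction of PZP, RPS28, FKBP1C and METAP1D rested on short or single-exon transcripts.

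The next genes were protein-coding genes assembled alike that also met the rule for named genes, taken after their values were seen. Among them the lowest values included several metabolic enzymes and matrix genes. MT1F, a metallothionein that binds zinc and copper, had 3.17 FPKM after NaB (95% Cufflinks interval 2.26 to 4.08) and 39.9 FPKM in control (36.1 to 43.6), a log2 fold change of -3.29. PLOD1, a lysyl hydroxylase of collagen, had 6.63 FPKM after NaB and 66.5 FPKM in control (log2 -3.14). PYCR1, which makes proline in mitochondria, had 27.6 FPKM after NaB and 178 FPKM in control (log2 -2.65). These intervals cover the estimation error of 1 library and no spread between cultures. ZWINT, a kinetochore protein, had 4.87 FPKM after NaB and 35.1 FPKM in control. CCL20, a chemokine, had 58.9 FPKM after NaB and 286 FPKM in control. EGR1, an immediate early transcription factor, had 4.43 FPKM after NaB and 24.3 FPKM in control. The others of the 12 lowest were ISCU, MT1G, COL2A1, NID1, GPHA2 and EBP, with log2 fold changes of -2.41 to -2.22. MT1F and MT1G belong to a family of near-identical genes and may share reads with its other members.

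The highest value among the same protein-coding genes was that of PLA2G2A, a secreted phospholipase, with a log2 fold change of 3.94. PLA2G2A had 82.2 FPKM after NaB (interval 77.5 to 86.9) and 4.41 FPKM in control (3.38 to 5.45). CRYAB, a small heat shock protein, had 21.3 FPKM after NaB and 3.87 FPKM in control (log2 2.20). CYGB, which encodes cytoglobin, had 77.4 FPKM after NaB and 17.6 FPKM in control (log2 2.08). The intervals of the NaB and control libraries did not overlap in these genes, which was a condition of choosing them. SMOX, which oxidises spermine, had 74.8 FPKM after NaB and 20.1 FPKM in control. COX10, an enzyme of heme A synthesis, had 28.4 FPKM after NaB and 6.45 FPKM in control. The rest of the 12 highest were RGS14, KRTAP3-1, AVPI1, CDC42EP1, KLRC2, NR2F6 and TBX15, with log2 fold changes of 1.73 to 2.82, and KLRC2 has near-identical relatives beside it.

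**Figure D2:**
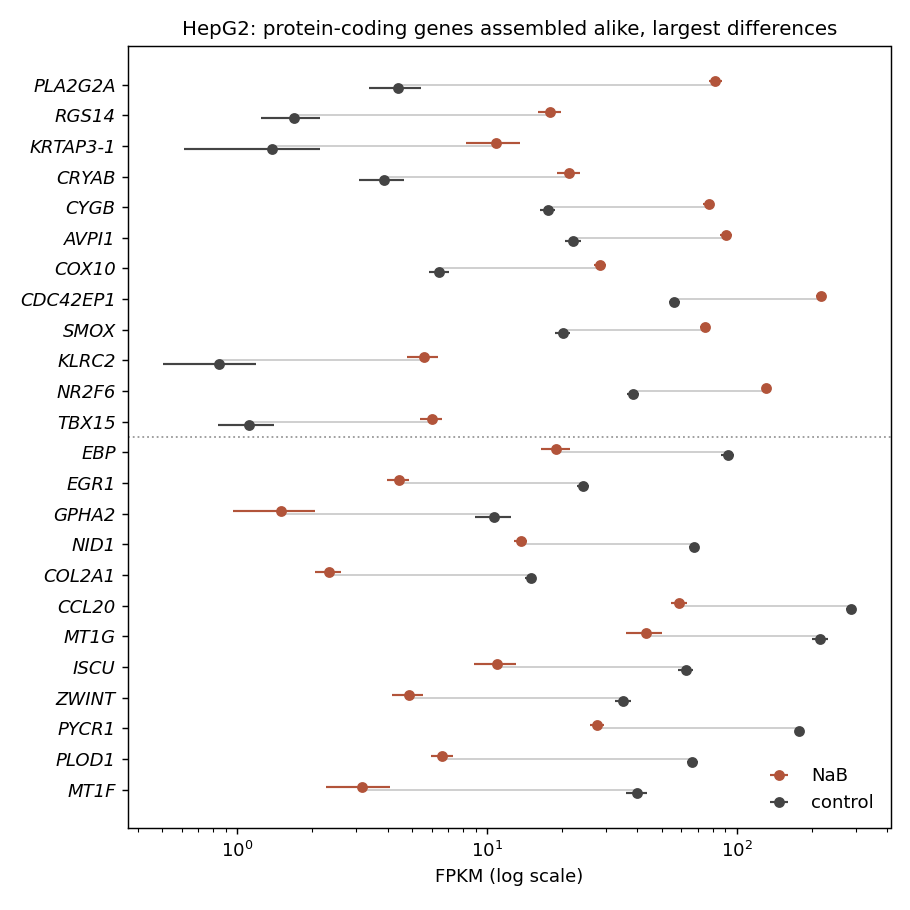
FPKM on a log axis (x) after NaB (red) and in control (dark grey) for protein-coding genes in the HepG2 libraries (y), with 95% Cufflinks intervals as bars. Shown are the 12 highest and 12 lowest of those assembled alike that met the rule for named genes. The intervals of the libraries do not overlap for any of these genes, which was a condition of choosing them, and PLA2G2A (82.2 against 4.41 FPKM) and MT1F (3.17 against 39.9 FPKM) lie farthest apart in each direction.

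Genes downstream of ATF4 lay mostly below 0, and the ATF4 transcript lay above it. Of 36 listed targets of ATF4 and its partner CHOP, 33 were measured, 0 were higher and 7 lower past the threshold, with a median log2 fold change of -0.87. Over all measured genes 5.22% were higher and 5.61% lower, with a median of 0.02. Among the 24 assembled alike, 18 were below 0, 3 were lower past the threshold and the median was -0.79, against 0.854% lower and a median of 0.02 over all genes assembled alike. PHGDH, the first enzyme of serine synthesis, had 29.8 FPKM after NaB and 89.0 FPKM in control (log2 -1.55). PSAT1, the next enzyme of that pathway, had 42.0 FPKM after NaB and 101 FPKM in control, and PSPH, the last one, 48.4 FPKM after NaB and 37.0 FPKM in control. The NaB library was the lower one at the first and middle steps of the pathway and the higher one at the last. SHMT2, which passes the carbon of serine to folate, had 60.5 FPKM after NaB and 120 FPKM in control. MTHFD2, which acts next in mitochondria, had 6.19 FPKM after NaB and 67.3 FPKM in control (log2 -3.25), with mean transcript lengths of 4425 nt and 2558 nt, and its log2 fold change was -2.44 over annotated exons. ASNS, which makes asparagine, was listed at 0 after NaB and had 31.7 FPKM in control, with a log2 fold change of -2.63 over annotated exons.

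Aminoacyl-tRNA synthetases, transporters and stress regulators of the list differed among themselves. GARS1 had 41.0 FPKM after NaB and 79.1 FPKM in control, WARS1 25.4 FPKM after NaB and 44.7 FPKM in control, and CARS1 8.95 FPKM after NaB and 16.1 FPKM in control. SARS1 and EPRS1 had log2 fold changes of -0.73 and -0.69. NARS1, another synthetase, had 72.5 FPKM after NaB and 67.9 FPKM in control. Transporters SLC7A11, SLC1A5 and SLC38A2 had log2 fold changes of -1.17, -0.87 and -0.79, while SLC7A5 and SLC3A2, which form a single exchanger, had 0.08 and -0.00. DDIT4, an inhibitor of mTORC1, had 11.8 FPKM after NaB and 37.0 FPKM in control (log2 -1.57). TRIB3, a pseudokinase induced by CHOP, had 43.2 FPKM after NaB and 91.7 FPKM in control. ATF4 itself had 447 FPKM after NaB and 209 FPKM in control (log2 1.09), the highest value of the list among members assembled alike. ATF4 protein is known to be set largely by translation, which these libraries do not measure.

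The ER chaperone list, which also holds sensors and regulators of ER stress, lay mostly below 0 with few members past the threshold. Its members are called ER chaperones here. Of 27 measured genes, 2 were higher and 2 lower past the threshold, counts near the shares over all measured genes (5.22% and 5.61%), and the median was -0.68. The higher genes included CREB3L3, a transcription factor (log2 1.69), which was not assembled alike. Among the 20 assembled alike, 19 were below 0, 0 were higher and 2 lower past the threshold (0.707% and 0.854% over all genes assembled alike), with a median of -0.70. HSPA5, the main ER chaperone (BiP), had 245 FPKM after NaB and 697 FPKM in control (log2 -1.51). HSP90B1, the ER form of HSP90, had 158 FPKM after NaB and 400 FPKM in control, and CALR, which encodes calreticulin, 436 FPKM after NaB and 896 FPKM in control. SDF2L1, an ER cofactor, had 21.7 FPKM after NaB and 65.6 FPKM in control (log2 -1.55). The sensors ERN1 and ATF6 had log2 fold changes of -0.14 and -0.06. In the cytosol, HSP90AB1 had 378 FPKM after NaB and 1165 FPKM in control (log2 -1.62), and HSPA8 had 571 FPKM after NaB and 605 FPKM in control.

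Genes of DNA replication lay below 0 in nearly every case. Of 45 measured genes of G1/S and DNA replication, 0 were higher and 11 lower past the threshold, against 5.22% and 5.61% of all measured genes, with a median of -1.04. Among the 31 assembled alike, 29 were below 0, 4 were lower past the threshold, against 0.854% of all genes assembled alike, and the median was -0.85. CDC6, which loads the replicative helicase, had 5.82 FPKM after NaB and 25.0 FPKM in control (log2 -1.93). The helicase subunits MCM7, MCM6, MCM5 and MCM3 had log2 fold changes of -1.90, -1.54, -1.28 and -1.24. MCM7 stood at 15.6 FPKM after NaB and 60.6 FPKM in control. TK1, thymidine kinase, had 26.1 FPKM after NaB and 80.8 FPKM in control (log2 -1.59). E2F1 had 10.5 FPKM after NaB and 25.3 FPKM in control. Of 35 measured genes of G2/M, 1 was higher and 2 lower past the threshold with a median of -0.23, and the 30 assembled alike had a median of -0.14, with 21 below 0. CCNB1 had 50.4 FPKM after NaB and 53.8 FPKM in control, AURKA 75.5 FPKM after NaB and 59.8 FPKM in control, and AURKB 12.2 FPKM after NaB and 32.9 FPKM in control. The difference between the 2 lists was not tested.

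Sequences of promoters are shown for members of these 3 lists because a factor with a known recognition sequence acts on genes of each list. The windows run 5′ to 3′ on the strand of the gene from 250 bases before to 50 bases after the start (RefSeq, GRCh38.p14), in lower case with matches in capitals on either strand. The ER stress element was searched as CCAAT, then any 9 bases, then CCACG. It was found in 0.0769% of 35116 promoter windows, which is 0.0916% of 27305 genes, and in 7 of the 25 ER chaperone genes with a window.
HSPA5 (chr9:125241294-125241593, minus strand): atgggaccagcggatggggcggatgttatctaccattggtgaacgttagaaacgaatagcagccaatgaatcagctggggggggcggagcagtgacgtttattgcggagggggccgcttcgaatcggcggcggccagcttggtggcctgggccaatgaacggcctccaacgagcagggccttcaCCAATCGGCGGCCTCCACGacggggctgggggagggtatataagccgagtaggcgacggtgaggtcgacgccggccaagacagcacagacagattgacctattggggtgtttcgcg
HSP90B1 (chr12:103930160-103930459, plus strand): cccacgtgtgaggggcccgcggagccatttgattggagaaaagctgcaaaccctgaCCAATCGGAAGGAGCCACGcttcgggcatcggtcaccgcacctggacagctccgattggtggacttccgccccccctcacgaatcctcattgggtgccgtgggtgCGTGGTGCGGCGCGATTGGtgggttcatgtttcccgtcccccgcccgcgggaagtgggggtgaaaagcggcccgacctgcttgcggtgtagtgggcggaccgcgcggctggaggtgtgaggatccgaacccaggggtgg
CALR (chr19:12938359-12938658, plus strand): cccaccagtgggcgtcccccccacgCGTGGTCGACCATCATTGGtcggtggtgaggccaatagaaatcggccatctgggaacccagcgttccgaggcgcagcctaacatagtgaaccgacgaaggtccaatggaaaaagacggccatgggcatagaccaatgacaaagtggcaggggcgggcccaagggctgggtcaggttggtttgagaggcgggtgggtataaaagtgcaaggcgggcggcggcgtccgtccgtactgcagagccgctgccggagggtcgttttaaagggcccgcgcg

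The E2F site was searched as TTTNGCGC and was found in 1.79% of promoter windows, 2.17% of genes and 17 of 41 genes of G1/S and DNA replication. Matches in MCM6 overlap one another.
MCM6 (chr2:135876394-135876693, minus strand): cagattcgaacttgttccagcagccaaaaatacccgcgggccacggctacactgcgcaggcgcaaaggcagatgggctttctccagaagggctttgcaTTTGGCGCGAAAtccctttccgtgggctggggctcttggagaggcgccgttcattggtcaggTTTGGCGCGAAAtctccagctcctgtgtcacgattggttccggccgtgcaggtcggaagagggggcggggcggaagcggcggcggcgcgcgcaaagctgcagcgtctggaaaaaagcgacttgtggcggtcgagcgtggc
MCM7 (chr7:100101348-100101647, minus strand): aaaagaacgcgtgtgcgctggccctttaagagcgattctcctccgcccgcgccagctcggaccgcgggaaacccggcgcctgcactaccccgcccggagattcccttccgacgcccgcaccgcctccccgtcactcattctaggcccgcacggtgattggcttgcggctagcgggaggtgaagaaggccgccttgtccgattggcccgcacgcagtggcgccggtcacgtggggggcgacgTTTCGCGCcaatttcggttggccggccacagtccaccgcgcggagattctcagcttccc
CDC6 (chr17:40287629-40287928, plus strand): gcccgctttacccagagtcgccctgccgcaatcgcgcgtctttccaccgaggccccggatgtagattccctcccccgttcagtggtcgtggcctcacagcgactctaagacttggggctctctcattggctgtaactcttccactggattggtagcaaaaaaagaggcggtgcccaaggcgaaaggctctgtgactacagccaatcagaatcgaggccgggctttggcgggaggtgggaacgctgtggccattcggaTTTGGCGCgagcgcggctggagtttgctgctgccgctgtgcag

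The ATF4 and C/EBP composite site was searched as TGATGNAA and was found in 3.62% of promoter windows, 4.46% of genes and 13 of 31 ATF4 and CHOP target genes.
GARS1 (chr7:30594628-30594927, plus strand): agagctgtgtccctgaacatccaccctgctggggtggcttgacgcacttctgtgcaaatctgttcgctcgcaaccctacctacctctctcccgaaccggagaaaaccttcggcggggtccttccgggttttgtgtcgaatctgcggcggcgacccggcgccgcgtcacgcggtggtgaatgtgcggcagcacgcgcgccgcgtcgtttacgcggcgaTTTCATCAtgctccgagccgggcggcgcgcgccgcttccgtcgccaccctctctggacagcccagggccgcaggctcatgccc
CARS1 (chr11:3057374-3057673, minus strand): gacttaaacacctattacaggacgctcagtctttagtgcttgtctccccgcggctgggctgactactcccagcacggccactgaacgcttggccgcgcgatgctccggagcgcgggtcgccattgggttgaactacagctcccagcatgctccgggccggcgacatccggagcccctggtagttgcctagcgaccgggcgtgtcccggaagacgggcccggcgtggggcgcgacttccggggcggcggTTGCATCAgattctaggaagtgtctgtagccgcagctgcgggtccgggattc

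A match is a description of the letters and not a site shown to be used. The 5 ER chaperone genes assembled alike that held the ER stress element had a median log2 fold change of -1.14, and the 14 without it had -0.66. The other 4 protein-coding genes assembled alike with the element were ALG12, FICD, TRIM5 and TMEM120A, with log2 fold changes of -0.95, -0.70, -0.44 and -0.01. The chaperone list lay below 0 with and without the element, and TMEM120A had 48.7 FPKM after NaB and 49.1 FPKM in control, so nothing is read from these values about the element. For the E2F site the 12 list genes with a match had a median of -1.02 and the 16 without one -0.81, while 200 genes with a match outside the list had a median of -0.02. For the ATF4 and C/EBP site the 8 list genes with a match had a median of -0.70 and the 13 without one -0.79, and 140 genes with a match outside the list had a median of -0.02. Over all 5837 protein-coding genes assembled alike with a window the median was 0.01.

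Genes of sterol synthesis and its regulation lay mostly below 0. Of 24 measured, 2 were higher and 3 lower past the threshold (5.22% and 5.61% over all measured genes), with a median of -0.77. Among the 16 assembled alike the median was -0.89 and 12 were below 0, with 1 lower past the threshold (0.854% over all genes assembled alike). EBP, an isomerase late in the pathway, had 18.96 FPKM after NaB and 91.8 FPKM in control (log2 -2.22). HMGCS1 had 31.1 FPKM after NaB and 63.0 FPKM in control, and SREBF2, which encodes SREBP2, 32.3 FPKM after NaB and 39.4 FPKM in control. SCAP, its escort, had 46.4 FPKM after NaB and 23.7 FPKM in control. Fatty acid genes had values on both sides, with 1 higher and 4 lower of 28 measured (5.22% and 5.61% over all measured genes). FADS2, a desaturase, had 7.77 FPKM after NaB and 34.1 FPKM in control (log2 -2.002), and FABP1, the liver fatty acid binding protein, 82.8 FPKM after NaB and 254 FPKM in control (log2 -1.60). CPT1A, which admits fatty acids to mitochondria for oxidation, had 33.9 FPKM after NaB and 10.8 FPKM in control (log2 1.56), the only one of 22 members assembled alike that was higher past the threshold.

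p53 target genes had a median above 0, with no member assembled alike past the threshold. Of 30 measured, 2 were higher and 1 lower (5.22% and 5.61% over all measured genes) with a median of 0.24, and the 20 assembled alike had a median of 0.39, with 4 below 0. FDXR, ferredoxin reductase, had 165 FPKM after NaB and 61.1 FPKM in control (log2 1.42), BBC3, which encodes the cell death protein PUMA, 29.9997 FPKM after NaB and 11.7 FPKM in control (log2 1.28), and FAS, a death receptor, 16.6 FPKM after NaB and 7.62 FPKM in control (log2 1.03). CDKN1A, which encodes the cell cycle inhibitor p21, had 75.0 FPKM after NaB (interval 71.6 to 78.4) and 68.6 FPKM in control (65.3 to 71.9). PMAIP1, which encodes NOXA, had 2.39 FPKM after NaB and 1.91 FPKM in control. GADD45A, a stress gene, had 56.6 FPKM after NaB and 47.2 FPKM in control (log2 0.26), and over annotated exons its log2 fold change was -0.48. GDF15, a stress cytokine, had 131 FPKM after NaB and 333 FPKM in control, and BAX 129 FPKM after NaB and 229 FPKM in control. The members of this list lay on both sides of 0.

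Of 32 measured genes of the BCL2 family, caspases and their inhibitors, 1 was higher and 2 were lower past the threshold, with a median of 0.08, against 5.22% and 5.61% of all measured genes. Among the 22 assembled alike, 1 was higher and 0 were lower, against 0.707% and 0.854% of all genes assembled alike, with a median of 0.24. The higher gene was BIK, a BH3-only protein, with 6.31 FPKM after NaB (interval 5.16 to 7.45) and 1.23 FPKM in control (0.81 to 1.65), a log2 fold change of 1.71. BMF, another BH3-only gene, had 8.51 FPKM after NaB and 3.05 FPKM in control, and TRADD, an adaptor of death receptors, 19.2 FPKM after NaB and 6.21 FPKM in control. MCL1, which protects cells, had 34.97 FPKM after NaB and 63.3 FPKM in control. BCL2L1 had 191 FPKM after NaB and 210 FPKM in control. G1 cyclins and CDK inhibitors had 0 of 15 measured members past the threshold. RB1 had 15.6 FPKM after NaB and 17.6 FPKM in control, and GAPDH 629 FPKM after NaB and 555 FPKM in control. RB1 was not assembled alike, and its log2 fold change of -0.16 was 0.49 over annotated exons.

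Plasma proteins differed by member. TTR, which carries thyroid hormone, had 96.7 FPKM after NaB and 251 FPKM in control, and SERPINA1, antitrypsin, 1334 FPKM after NaB and 4069 FPKM in control (log2 -1.61). TF, transferrin, had 474 FPKM after NaB and 1333 FPKM in control. Neither SERPINA1 nor TF was assembled alike. Coverage of the main annotated transcript after NaB and in control was 40.1% and 39.9% for SERPINA1, and 10.7% and 10.9% for TF. Fibrinogen genes FGA, FGB and FGG had log2 fold changes of 0.04, 0.04 and 0.16, and AGT, angiotensinogen, 0.17. Of 19 measured hepatocyte genes, 2 were higher and 1 lower past the threshold (5.22% and 5.61% over all measured genes), with a median of -0.14. The 2 higher were ALB and AFP, for which the control library listed no transcript. Of the 12 assembled alike, 0 were higher and 0 lower past the threshold (0.707% and 0.854% over all genes assembled alike), with a median of -0.24. Genes that could pass or sense boron were measured too, as NaB is a boron salt. SLC4A11, the human relative of a plant boron transporter, had 31.4 FPKM after NaB and 32.8 FPKM in control, AQP3, an aquaglyceroporin, 13.5 FPKM after NaB and 7.13 FPKM in control, and SIRT3 5.81 FPKM after NaB and 6.96 FPKM in control. Of the 14 genes measured, 0 were higher and 1 lower past the threshold (5.22% and 5.61% over all measured genes), and the one was SIRT5, which was listed only in control.

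**Figure D3:**
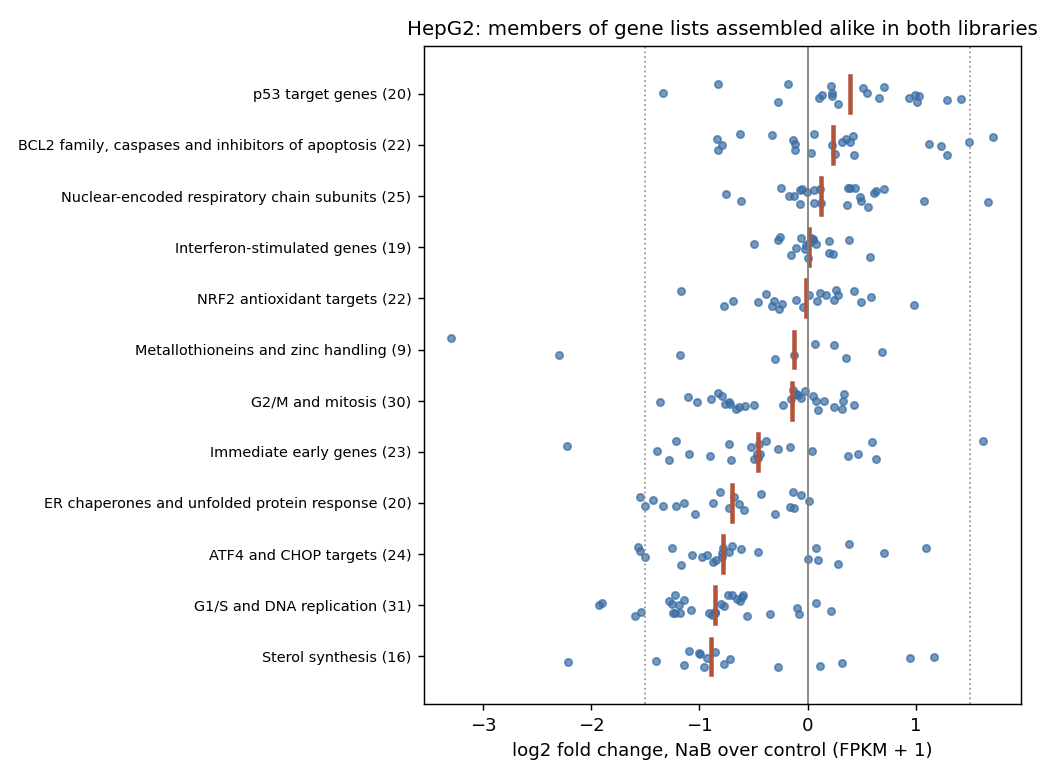
Log2 fold change of NaB over control in HepG2 (x axis) for members of 12 gene lists assembled alike (points, number in brackets), with the median of each list as a red bar and dotted lines at 1.5 in both directions. Lists of sterol synthesis, DNA replication, ATF4 targets and ER chaperones have medians of -0.89 to -0.70, and the p53 list has 0.39.

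NaB could be compared with its absence in another pair of HepG2 libraries, NaB with Cur and Pip against Cur and Pip, and in the Hep3B-labelled pair of NaB against control, neither of which shares a library with the first pair. Of 42 genes lower past the threshold and assembled alike that were also assembled alike in the Cur and Pip pair, 29 were below 0 there (69.0%), against 45.3% of 5177 genes assembled alike in both pairs, and 4 were lower past the threshold (9.52%, against 0.966%). Of 40 higher genes, 27 were above 0 (67.5%, against 54.7%) and 1 was past the threshold. In the Hep3B-labelled pair, 28 of 30 lower genes were below 0 (93.3%, against 62.6% of 5126 genes) and 8 were past the threshold (26.7%, against 3.02%). Of 33 higher genes, 21 were above 0 (63.6%, against 37.4%) and 3 were past the threshold (9.09%, against 0.605%). Over all genes assembled alike, 0.861% were higher and 1.08% lower past the threshold in the Cur and Pip pair, and 0.809% higher and 3.37% lower in the Hep3B-labelled pair. These shares were not tested, and the NaB dose of the Hep3B-labelled cells was lower.

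PLOD1 was lower in all 3 pairs, with 6.63 FPKM after NaB and 66.5 FPKM in control, 8.14 FPKM with NaB added and 34.4 FPKM with Cur and Pip, and log2 fold changes of -1.95 in that pair and -2.61 in the Hep3B-labelled pair. PHGDH had log2 fold changes of -1.55 for NaB over control, -1.59 in the Cur and Pip pair and -2.36 in the Hep3B-labelled pair. PYCR1 had -2.65 in HepG2, -1.07 with NaB added to Cur and Pip, where it was not assembled alike, and -2.30 in the Hep3B-labelled pair. Among protein-coding genes assembled alike, the next lowest values in both HepG2 pairs were those of B4GALNT1, STC2, SDF2L1 and CCNI. STC2, a secreted glycoprotein induced by ER stress, had log2 fold changes of -1.503 and -1.64 in the HepG2 pairs and 1.11 in the Hep3B-labelled pair. KRTAP3-1, CAVIN2, ANKRD65, AVPI1, TLE1 and ZNF165 had the highest values in both HepG2 pairs among protein-coding genes assembled alike. KRTAP3-1, a hair keratin associated protein whose transcripts had 1 exon, had 10.9 FPKM after NaB and 1.38 FPKM in control, and 16.9 FPKM with NaB added and 1.10 FPKM with Cur and Pip. Some other genes with large differences for NaB over control did not keep them in the Cur and Pip pair, where they were also assembled alike. MT1F and MT1G had log2 fold changes of 0.57 and 0.44 there, ZWINT -0.06 and PLA2G2A -0.27. ZWINT had -1.62 in the Hep3B-labelled pair.

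By the rule over all protein-coding genes listed in both libraries, the lowest in both HepG2 pairs were MEA1, NDUFAF4, MTHFD2, ZNHIT1, LSM8 (log2 0.22 over annotated exons) and PLOD1. The highest were PZP, DYNLL2, KRTAP3-1, CMSS1, RPS24 and SULT1C2. DYNLL2, a dynein light chain, had 122 FPKM after NaB and 12.51 FPKM in control.

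List medians differed in how they compared between pairs, with no test of the difference. For 18 ATF4 and CHOP targets assembled alike in both HepG2 pairs, the medians were -0.79 for NaB over control and -0.77 for NaB added to Cur and Pip, against 0.02 and 0.07 over all such genes. For 19 ER chaperones the medians were -0.68 and -0.01. For 23 genes of G1/S they were -0.85 and 0.31, for 18 genes of G2/M -0.10 and 0.81, and for 11 genes of sterol synthesis -0.77 and 0.59. In the Hep3B-labelled pair, with a median of -0.17 over all genes assembled alike in both, 16 ATF4 and CHOP targets had -0.32, 17 ER chaperones -0.10, 27 genes of G1/S -0.63 and 14 genes of sterol synthesis 0.15. BIK had log2 fold changes of 1.15 with NaB added to Cur and Pip and 1.17 in the Hep3B-labelled pair, and BBC3 0.53 and -0.51.

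**Figure D4:**
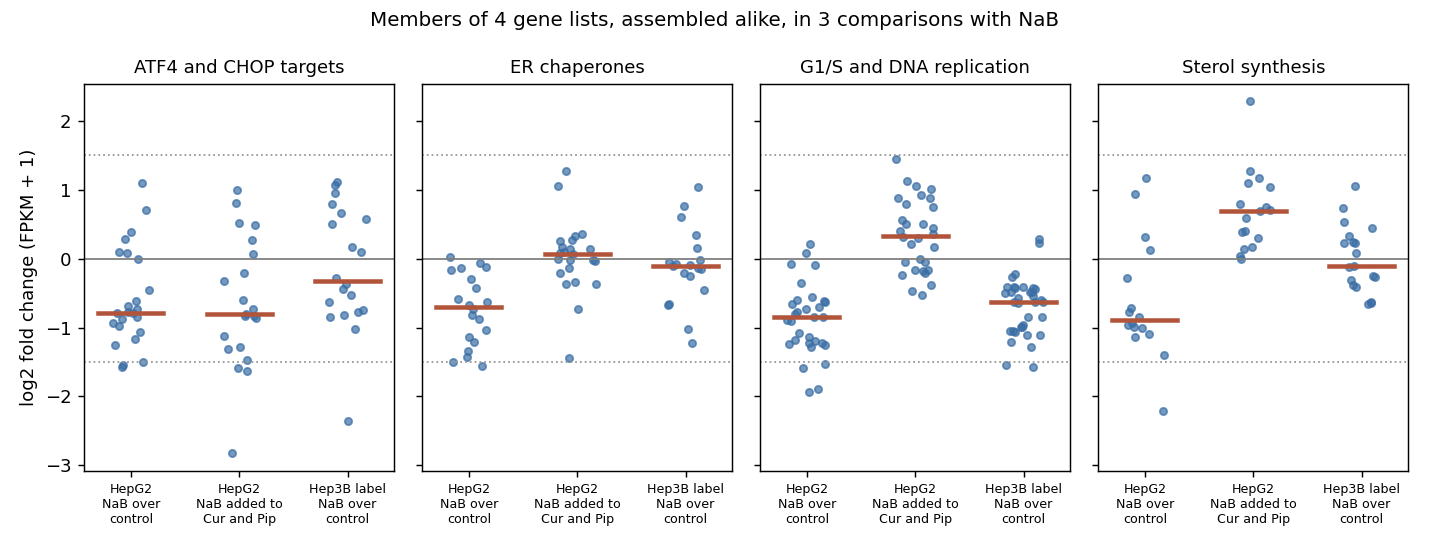
Log2 fold change (y axis) of list members assembled alike (points) in NaB over control in HepG2, NaB added to Cur and Pip in HepG2, and NaB over control in the Hep3B-labelled libraries, for 4 lists, with medians as red bars. ATF4 and CHOP targets lie mostly below 0 in both HepG2 pairs. Genes of DNA replication and sterol synthesis lie mostly below 0 in NaB over control. Where NaB was added to Cur and Pip, 19 of 30 genes of DNA replication and 16 of 17 of sterol synthesis lie above 0. The share above 0 there was 54.7% over 5177 genes assembled alike in both HepG2 pairs.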

How the data were processed

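HepG2 cells treated with NaB and untreated HepG2 cells were sequenced as 1 strand-marking library each. RNA was isolated from several replicates, and no source says whether they were pooled. The 1 deposited library per condition gives no replicate error. Per the labels and the study's methods, the authors aligned reads with STAR against GRCh38 and ran Cufflinks on every library, and the deposited FPKM of each assembled transcript comes with a 95% interval. Tool versions are not stated. Files of 6 of the 8 libraries were used, with 25.6 M to 33.4 M estimated fragments. Merged transcripts and Cuffdiff comparisons were not used here.

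Transcripts were assigned to GENCODE release 44 genes with bedtools 2.31.1, Python 3.11.15, numpy 2.4.6 and pandas 2.3.3. Assembly decides the sums: a gene with no transcript counts as 0, and a transcript over several genes goes to 1 of them. The interval of a gene combined those of its transcripts in quadrature and covers estimation error only. The pseudocount was 1 FPKM. The assignment was tested on simulated data that held 1 intact annotated transcript per gene. That test could not cover broken, missing or gene-spanning transcripts.

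The rule named the 12 highest and 12 lowest protein-coding genes listed in both libraries (FPKM of 5 or more in either, disjoint intervals, past 1.5 also over annotated exons), 9 genes of interest, the extreme members of 31 gene lists, the 6 highest genes listed in 1 library, and the 6 highest and 6 lowest over both HepG2 pairs. Some genes that the rule named are not reported here. From the lists, other members were named after their values were seen. Members, lists and the rule were chosen with earlier results of these data known. The class of genes assembled alike, and the names drawn from it, came after the values were seen.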

Additional observations from a re-analysis of the deposited data

Results flagged for a closer look

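CCL20 was past the threshold in opposite directions in the 2 HepG2 pairs, in genes assembled alike and also over annotated exons. Its log2 fold change was -2.26 for NaB over control, with 58.9 FPKM after NaB and 286 FPKM in control, and 1.84 for NaB added to Cur and Pip, with 55.7 FPKM with NaB added and 14.8 FPKM with Cur and Pip. Each value comes from 1 library per condition, and the difference was not tested.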

How the results depend on the processing

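Counts depended on the pseudocount and the threshold. Among all measured genes, 635 were higher and 683 lower. A pseudocount of 0.1 FPKM gave 958 higher, and one of 5 FPKM gave 280 higher and 321 lower. Thresholds of 1 and 2 gave 1201 and 409 higher, and a threshold of 1 gave 1230 lower. Protein-coding genes alone gave 377 higher. Among genes listed in both libraries, 179 were higher and 201 lower. Pseudocounts of 0.1 and 5 FPKM gave 329 and 75 higher and 308 and 89 lower, and thresholds of 1 and 2 gave 572 and 58 higher and 637 and 68 lower. In genes assembled alike, an alternative chosen after seeing the data, 53 were higher and 64 lower, against 42 and 50 with a tighter limit on length and 74 and 86 with a limit of 2 times. The other alternatives left these counts within 1.5 times, among them median-of-ratios scaling (626 higher and 690 lower) and depth apportioned over annotated exons (604 higher and 545 lower).

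Without single-exon transcripts the log2 fold changes of KRTAP3-1, FKBP1C, FTH1P11 and FTH1P2 were 0, since no transcript was left, and that of PZP was -6.86. Without transcripts under 300 nt that of PZP was 0, that of RPS28 -5.28 and that of METAP1D 0.18. Over annotated exons that of LSM8 was 0.22. Of the other values of named genes under the alternatives, 949 stayed within the Cufflinks interval of the log2 fold change and 194 lay outside it. The list median of DNA replication was -0.62 with a pseudocount of 5 FPKM, and that of ATF4 and CHOP targets -0.70. No paired analysis was possible because HepG2 with NaB and HepG2 control had 1 library each, which leaves no replicate numbers to pair within this comparison and no replicate to leave out. A joint fit over the NaB pairs of both cell labels, with and without Cur and Pip, asks for an effect shared across labels and doses and was not run. With 1 library per condition, the effect of NaB cannot be told apart from differences between cultures or library preparations.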

Other observations

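Pseudogenes of ferritin, the iron store, were higher after NaB. The parent genes FTH1 and FTL had no transcript assigned in either HepG2 library. Of 13 measured ferritin pseudogenes, 7 were assembled alike, and all 7 were above 0, with 6 past the threshold and a median log2 fold change of 1.82. Their FPKM summed to 163 after NaB and 40.9 in control. FTH1P11 had 21.5 FPKM after NaB and 3.89 FPKM in control, and FTH1P2 had 79.6 FPKM after NaB and 21.3 FPKM in control. With NaB added to Cur and Pip, 7 of 7 were above 0 with a median of 0.56, and in the Hep3B-labelled pair 9 of 9 with a median of 1.46. Over the exons of FTH1, depth apportioned from transcripts of other genes came to 711 FPKM after NaB and 693 FPKM in control, and over those of FTL to 1962 FPKM after NaB and 1700 FPKM in control. With NaB added to Cur and Pip, depth of all transcripts over FTH1 was 1342 FPKM, against 1909 FPKM with Cur and Pip. Over FTL it was 18618.5 FPKM and 2870 FPKM, while FPKM assigned to FTL itself was 26971.9 with NaB added and 0 with Cur and Pip. In the Hep3B-labelled pair it was 3131 FPKM after NaB and 2566 FPKM in control for FTH1, and 921 FPKM and 1768 FPKM for FTL. FPKM assigned to FTH1 itself there was 2832 after NaB and 4089 in control. For FTL it was 0 after NaB and 2021 in control. The FTL depths of both these pairs therefore rest on unlike assemblies. Near-identical copies may share reads, and the source of the difference was not tested. Over all gene types, 14 of 131 pseudogenes assembled alike were higher past the threshold (10.7%) and 0 were lower, against 37 of 7117 protein-coding genes higher (0.52%) and 62 lower (0.871%).

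Other gene groups are given by their median log2 fold change over members assembled alike, a class chosen after the values were seen, and over all measured members. Metallothioneins and zinc handling had -0.13 over 9 assembled alike and -0.22 over 12 measured. In that list MT1F and MT1G were lower past the threshold and assembled alike, and MT1G had 43.2 FPKM after NaB and 216 FPKM in control. Genes of iron handling had 0.03 over 11 and -0.01 over 17, and HAMP, the iron hormone hepcidin, had 143 FPKM after NaB and 72.3 FPKM in control. Immediate early genes had -0.46 over 23 and -0.47 over 28, with EGR1 lower and FOSL2 higher past the threshold among those assembled alike. Glycolysis had -0.25 over 16 and -0.31 over 25, and the glucose transporter SLC2A3 had 6.09 FPKM after NaB and 21.7 FPKM in control. Histones had -0.12 over 7 assembled alike and 0.21 over 13 measured, so that the sign of their median depended on the class.

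The class also mattered for some other lists. Peroxidases, peroxiredoxins and dismutases had 0.01 over 16 assembled alike and -0.39 over 19 measured. Acute phase proteins had 0.10 over 10 and -0.01 over 23, with 1 of the 10 and 8 of the 23 lower past the threshold, against 0.854% and 5.61% of all genes in those classes. Respiratory chain subunits had 0.13 over 25 and 0.35 over 39, and gluconeogenesis and the urea cycle 0.03 over 15 and -0.04 over 20. NF-kB targets had 0.24 over 18 and 0.12 over 23, carriers such as TTR -0.26 over 11 and -0.42 over 18, and genes of boron passage and the sirtuins 0.48 over 10 and 0.32 over 14. Values closer to each other were found for epithelial and mesenchymal markers (-0.43 over 19 and -0.43 over 22), ribosome biogenesis (-0.15 over 23 and -0.25 over 29), hepatocyte transcription factors (0.27 over 15 and 0.27 over 23), heat shock proteins (-0.17 over 14 and -0.16 over 18), fatty acid genes (-0.27 over 22 and -0.33 over 28) and apolipoproteins (-0.32 over 13 and -0.36 over 18). The same held for NRF2 targets (-0.01 over 22 and -0.01 over 28), coagulation and complement (0.03 over 22 and 0.02 over 32), cytochromes P450 (0.06 over 17 and -0.00 over 24), interferon-stimulated genes (0.01 over 19 and 0.00 over 27), G1 cyclins (-0.07 over 8 and -0.08 over 15) and autophagy (-0.01 over 19 and -0.01 over 29).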
